A study of Mus musculus with 6 samples.

Results

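The genes of lipid carriage and fatty acid binding examined here were Apoe, Clu, Abca1, Lpl, Fabp5, Fabp7, Fabp3, Scd2 and Cd36, 9 of the 16411 genes listed in the deposited count table. They were chosen by name, and all 9 were listed. Single-cell RNA sequencing had been carried out on the dissociated hypothalamus of male ob/ob mice, which lack leptin and are obese and diabetic. Every mouse was 11 weeks old, had received 3 µg of FGF1 R50E (fibroblast growth factor 1 with a mutation that impairs integrin binding) into a brain ventricle, and was killed on day 5. Libraries were made with droplet-based 10x Genomics chemistry that reads the 3' ends of transcripts, 1 mouse per library, and 4 of the 6 labelled mice (3, 4, 30 and 34) had cells in the table. There was 1 treatment group and no untreated mouse among the labelled samples, so each comparison was made between cell types within the same mice and none of them measures an effect of R50E.

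The brain makes its own lipoproteins, because plasma lipoproteins hardly cross the blood-brain barrier. Astrocytes secrete particles built on apolipoprotein E (Apoe) and clusterin (Clu, also called apolipoprotein J), and the cholesterol and phospholipid of these particles are exported by the transporter Abca1. Neighbouring cells take lipid up through lipoprotein receptors, through lipoprotein lipase (Lpl), which frees fatty acids from triglyceride, and through the scavenger receptor Cd36. Inside the cell, fatty acids are carried by the small binding proteins Fabp3, Fabp5 and Fabp7 and are desaturated by Scd2, the main stearoyl-CoA desaturase of the brain, and oligodendrocytes place great demands on these pathways when they form myelin.

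The 20151 cells of the 4 mice held 23971102 UMIs (unique molecular identifiers, that is, counted molecules), between 3299971 and 8856079 per mouse, with a median of 909 to 1066 UMIs per cell. UMIs were summed per mouse and authors' cell type, and a level is given as CPM, counts per 1000000, the UMIs of a gene scaled to 1000000 UMIs of that sum. Astrocytes, tanycytes (radial glia-like cells of the third ventricle), ependymal cells, oligodendrocyte precursor cells (OPCs), committed oligodendrocyte precursors (COPs), oligodendrocytes, endothelial cells and microglia had between 34 and 2498 cells in every mouse. These 8 types were compared, and vascular leptomeningeal cells, with 6, 12, 44 and 6 cells in mice 3, 4, 30 and 34, were not. All 5 marker genes of a type were highest in that type except Scn7a, a tanycyte marker that was highest in ependymal cells, and Gpr17, an OPC marker that was highest in COPs. Cells labelled endothelial also held pericyte markers (3042 to 3449 CPM over 4 genes). Libraries of different mice shared between 18 and 66 cell barcodes. Types can be expected to have been named from the same counts, so the tests below describe differences between labelled types and are not independent evidence for them.

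Differences were tested with the edgeR quasi-likelihood test with mouse as a block, and p-values were adjusted by Benjamini-Hochberg over all genes tested. Calls needed an adjusted p under 0.05 together with a log2 fold change beyond 1 in either direction. Fold changes are centred on the bulk of the genes (TMM scaling), which moved them by a median of -0.29 between OPCs and astrocytes and 0.27 between oligodendrocytes and COPs relative to the ratio of CPM, and by less than that elsewhere.

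**Figure D1:**
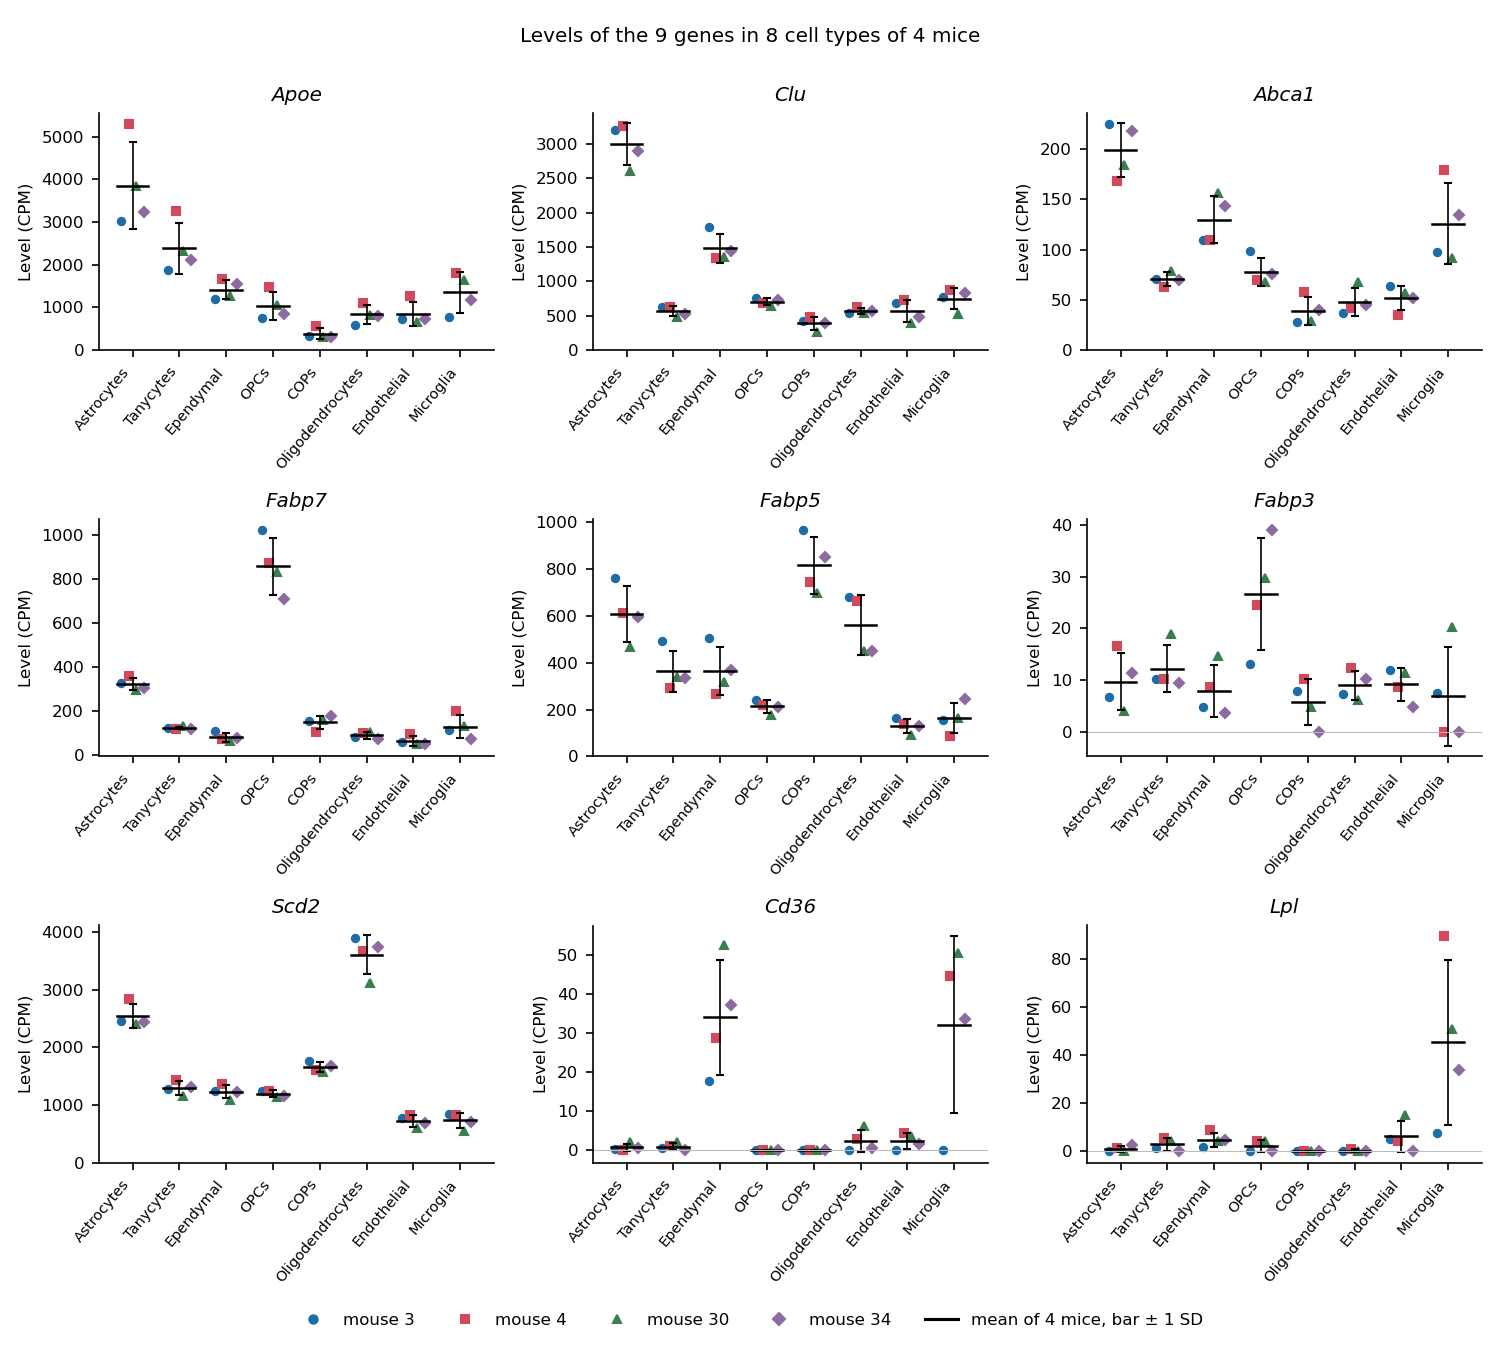
Level of each gene in CPM (vertical axes, which differ between panels) in 8 cell types, with 1 point per mouse, a line at the mean and a bar of 1 SD. Apoe, Clu and Abca1 have their highest mean in astrocytes, Fabp7 and Fabp3 in OPCs, Fabp5 in COPs, Scd2 in oligodendrocytes, Cd36 in ependymal cells and microglia, and Lpl in microglia, where the means of Lpl and Cd36 rest on 14 and 11 UMIs.

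In the mouse genome (GRCm38, GENCODE vM21), all 9 are protein-coding genes on 8 chromosomes. Apoe lies at chr7:19696109-19699188 and Clu at chr14:65968483-65981547, Abca1 at chr4:53030787-53159895 and Lpl at chr8:68880491-68907448. The binding protein genes lie at chr3:10012548-10016607 (Fabp5), chr10:57784881-57788450 (Fabp7) and chr4:130308595-130315463 (Fabp3). Scd2 lies at chr19:44293674-44306864 and Cd36 at chr5:17781690-17888801. Apoe, Abca1 and Cd36 are on the minus strand and the other 6 on the plus strand. RefSeq start sites (GRCm38.p6) were given for 5 of the 9, Apoe, Abca1, Fabp7, Fabp3 and Cd36. The bases upstream of the start are shown for the astrocyte pair Apoe and Abca1 and for the OPC gene Fabp7, whose levels are described next. Printed 5' to 3' on the strand of the gene, they span chr7:19699189-19699438 (Apoe, minus), chr4:53159896-53160145 (Abca1, minus) and chr10:57784673-57784880 (Fabp7, plus, ending where the GENCODE gene begins). Capitals mark the E-box CANNTG, the element bound by basic helix-loop-helix factors.
Apoe: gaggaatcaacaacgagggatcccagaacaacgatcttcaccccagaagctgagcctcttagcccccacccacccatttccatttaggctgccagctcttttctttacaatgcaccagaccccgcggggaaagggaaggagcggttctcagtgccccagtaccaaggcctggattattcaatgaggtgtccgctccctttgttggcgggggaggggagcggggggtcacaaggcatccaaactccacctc
Abca1: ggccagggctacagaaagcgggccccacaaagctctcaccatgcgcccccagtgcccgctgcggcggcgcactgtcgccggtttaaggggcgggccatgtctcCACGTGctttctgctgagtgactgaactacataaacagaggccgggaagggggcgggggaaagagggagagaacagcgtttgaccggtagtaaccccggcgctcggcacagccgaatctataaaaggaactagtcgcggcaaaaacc
Fabp7: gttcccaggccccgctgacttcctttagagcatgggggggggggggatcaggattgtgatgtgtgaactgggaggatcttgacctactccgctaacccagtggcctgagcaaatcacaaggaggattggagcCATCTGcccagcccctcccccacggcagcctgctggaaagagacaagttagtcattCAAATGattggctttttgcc

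Over 250 bases and both strands, the E-box letters occurred in 66.2% of 32851 promoters, once each in Abca1, Fabp3 and Cd36, at 2 places in Fabp7, and not in Apoe. AGGTCA, the core bound by many nuclear receptors, was found in 14.0% of promoters and in Fabp7 and Cd36 but not in Apoe, Abca1 or Fabp3. A direct repeat of it spaced by 4 bases is the arrangement preferred by liver X receptors. With both copies spelled exactly AGGTCA, it occurred in 5 of the 32851 promoters and in none of the 5 members. Repeats with mismatched letters were not searched, so this count does not cover them. CCAAT was found in 33.8% of promoters, at 2 places in Fabp7, where it overlaps no E-box, and at 1 place in Cd36, and TGGGAA, the core bound by RBPJ, the DNA-binding partner of Notch, was found in 21.6% and at 1 place each in Fabp7 and Cd36. The windows end at the RefSeq start site, and those of Fabp3 and Cd36 run into the gene annotated by GENCODE. Only 107 of the Fabp3 bases lie upstream of that gene. The E-boxes of Fabp3 and Cd36 and the TGGGAA of Cd36 lie inside the annotated genes. These matches describe the letters of the window only.

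Apoe, the main lipid carrier of the brain, was highest in astrocytes and next highest in tanycytes. Its level in astrocytes was 3029, 5307, 3848 and 3236 CPM in mice 3, 4, 30 and 34 (3855 ± 1028, SD, n = 4), and in tanycytes it was 1883, 3249, 2312 and 2117 CPM (2390 ± 599). Mouse 4 was highest in both types, and the tanycyte level of mouse 4 exceeded the astrocyte level of mouse 3, so the ranges overlapped although astrocytes were higher in 4 of 4 mice. The difference within mice was -0.70 on the log2 scale for tanycytes against astrocytes (SE 0.06, adjusted p = 4.8e-13, edgeR), which does not reach the fold needed for a call. Ependymal cells held 1198, 1675, 1259 and 1536 CPM (1417 ± 226) and microglia 764, 1810, 1653 and 1171 CPM (1349 ± 475). These types overlapped with each other, and ependymal cells lay below every tanycyte value. OPCs (1029 ± 324), endothelial cells (844 ± 276) and oligodendrocytes (832 ± 215) followed with overlapping ranges. COPs were lowest in 4 of 4 mice, at 323, 567, 301.5 and 308 CPM (375 ± 128), which overlapped with no other type. After thinning every cell to 500 UMIs, 80.4% ± 7.79 of astrocytes and 16.8% ± 4.80 of COPs held an Apoe UMI, against 92.1% ± 3.82 and 44.0% ± 11.4 of unthinned cells.

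Clusterin, a secreted chaperone that also travels on lipoproteins, shared the astrocyte maximum but was ordered differently along the ventricle. It was 3207, 3265, 2606 and 2896 CPM in astrocytes (2993 ± 305), 1795, 1346, 1350 and 1449 CPM in ependymal cells (1485 ± 212) and 628, 635, 480 and 527 CPM in tanycytes (567 ± 76.3). None of these 3 ranges overlapped with another. Tanycytes, second for Apoe, were therefore seventh of 8 types for Clu, with overlapping neighbours in oligodendrocytes (570 ± 37.3) and COPs (390 ± 96.1). In tanycytes against ependymal cells, Apoe was higher by 0.82 (SE 0.09, adjusted p = 1.7e-10) and Clu lower, at -1.31 (SE 0.09, adjusted p = 1.6e-16, both edgeR), each in 4 of 4 mice. Abca1, which loads lipid onto both carriers, was 225, 168, 184 and 217 CPM in astrocytes (199 ± 26.9) and 110, 110, 156 and 143 CPM in ependymal cells (130 ± 23.6). The astrocyte values stood above every ependymal value. Microglia held 97.4, 179, 91.3 and 135 CPM of Abca1, from 46 UMIs in all, and overlapped with ependymal cells. Abca1 was low in COPs (38.6 ± 13.8), oligodendrocytes (47.8 ± 13.8) and endothelial cells (51.8 ± 12.3), whose ranges overlapped.

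RNA of abundant astrocyte genes was found in every type, and the carriers were therefore set beside 5 astrocyte markers (Aqp4, Gja1, Slc1a2, Aldoc and Agt), summed and expressed as a percent of the astrocyte level of the same mouse. The marker sum reached 8.42% to 12.2% in COPs, 15.5% to 19.9% in oligodendrocytes, 15.7% to 21.0% in endothelial cells, 18.9% to 22.5% in microglia and 26.9% to 29.1% in OPCs. Apoe reached 7.83% to 10.7%, 19.5% to 24.6%, 17.3% to 23.9%, 25.2% to 42.9% and 24.6% to 27.8% in the same order. Clu reached 9.92% to 14.9%, 17.1% to 20.7%, 15.0% to 22.3%, 20.2% to 28.8% and 21.2% to 25.4%. Against this sum, Apoe was higher in 4 of 4 mice in oligodendrocytes, endothelial cells and microglia and in 2 of 4 in COPs. Clu was higher in 4 of 4 in COPs and microglia, in 3 of 4 in oligodendrocytes and in 2 of 4 in endothelial cells, and both were lower in 4 of 4 in OPCs. The single markers were spread around their sum. Over these 5 types, Slc1a2 and Aldoc reached 10.3% to 40.8%, and Aqp4, Gja1 and Agt reached 2.27% to 16.8%. Apoe and Clu were above each of Aqp4, Gja1 and Agt in 4 of 4 mice in all 5 types. In OPCs both were below Slc1a2 and Aldoc in 4 of 4, as were Clu in oligodendrocytes and Apoe in COPs. Apoe in oligodendrocytes was below both markers in 3 of 4. Clu was below Slc1a2 in endothelial cells and below Aldoc in microglia in 4 of 4. In the other direction, Apoe in microglia and Clu in COPs were above both markers in 3 of 4. The part of free astrocyte RNA in these levels was not tested. In tanycytes, Apoe at 60.1% to 65.4% was above a marker sum of 34.2% to 41.3%, and Clu at 18.2% to 19.6% was below it, in 4 of 4 mice each. Aldoc reached 43.0% to 86.1% in tanycytes, above Apoe in mouse 30, and Agt 8.05% to 8.70%, below Clu. In ependymal cells, Apoe (31.6% to 47.5%) and Clu (41.2% to 56.0%) both exceeded the marker sum (20.1% to 23.8%), while Aqp4 alone, at 69.5% to 113%, exceeded both in 4 of 4 mice. Abca1 was above the marker sum in 4 of 4 mice in ependymal cells (48.9% to 84.8%), microglia (43.3% to 106%), OPCs (34.8% to 43.8%), oligodendrocytes (16.3% to 36.9%) and COPs (12.5% to 34.3%), and in 3 of 4 in endothelial cells (20.6% to 30.9%). In tanycytes it was above the sum in 2 of 4 (31.3% to 42.9%). In the other direction, astrocytes held 22.7% to 30.2% of the tanycyte level of the summed tanycyte markers, and the marker sums of the other 6 types reached at most 5.80% of the level of their own type in astrocytes, with the single markers Olig1 (7.04% to 10.3%), Rarres2 (8.21% to 13.5%) and Mobp (11.3% to 16.7%) above that.

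**Figure D2:**
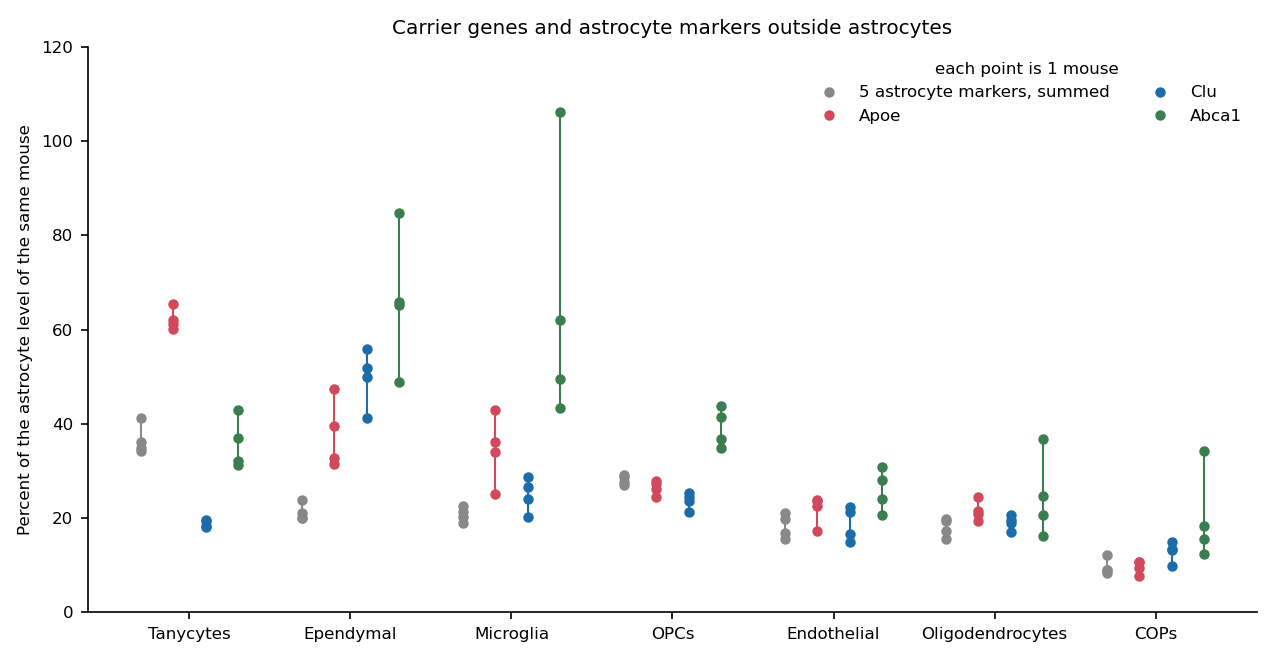
Percent of the astrocyte level of the same mouse (vertical axis) for the sum of 5 astrocyte markers, Apoe, Clu and Abca1 in 7 other cell types, with 1 point per mouse and a line from the lowest to the highest. Apoe and Clu fall on opposite sides of the marker sum in tanycytes (60.1% to 65.4% and 18.2% to 19.6%), both exceed it in ependymal cells, and both lie nearer to it in OPCs, endothelial cells, oligodendrocytes and COPs.

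Among the cells that border or neighbour the ventricle, members were mostly higher in astrocytes. In astrocytes against ependymal cells, 4 of 7 tested members, Cd36 included, were called higher. Of all 8371 tested genes, 14.3% were called higher and 31.8% in either direction. Abca1 and Fabp5 were tested and not called. Cd36 passed the filter on low counts through ependymal cells alone, so that it had to differ, and it is not counted among the members called in this comparison or in that of tanycytes with ependymal cells. The members higher in astrocytes were Fabp7 at 2.06 (SE 0.14), Apoe at 1.53 (SE 0.11), Scd2 at 1.16 (SE 0.10) and Clu at 1.13 (SE 0.11), each in 4 of 4 mice. In tanycytes against astrocytes, 3 of 7 tested members were called, each lower (Clu -2.42, SE 0.07, Abca1 -1.56, SE 0.11, and Fabp7 -1.40, SE 0.09), where 21.1% of all genes were called. Scd2 missed the call at -0.99 (SE 0.06) and was past it in 6 alternative settings, from -1.01 to -1.09. In tanycytes against ependymal cells, Clu was called, lower in tanycytes, and the other 5 tested members were not, where 19.8% of all genes were called. Fabp5 (364 ± 88.2 and 366 ± 103 CPM) and Scd2 (1299 ± 116 and 1234 ± 115 CPM) were not called between tanycytes and ependymal cells, with log2 differences of 0.07 (95% interval -0.11 to 0.25) and 0.16 (-0.002 to 0.32).

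Fabp7, Fabp5 and Scd2 had their highest means at different stages of the oligodendrocyte lineage. Fabp7, the brain-type binding protein of neural precursors and glia, was 1020, 869, 828 and 709 CPM in OPCs of mice 3, 4, 30 and 34 (857 ± 129). It was 321 ± 27.5 CPM in astrocytes and 154, 105, 158 and 177 CPM in COPs (149 ± 30.7). The OPC values stood above every value of the other 7 types. Of 1261 OPCs, 677 held a Fabp7 UMI, and after thinning to 500 UMIs the share was 33.5% ± 4.41 in OPCs and 3.06% ± 0.65 in endothelial cells, which served as the background, against 52.9% ± 6.12 and 7.66% ± 2.07 of unthinned cells. Oligodendrocytes (90.4 ± 16.0 CPM), ependymal cells (81.5 ± 20.6) and endothelial cells (64.7 ± 21.1) overlapped with each other at the low end. Fabp3, the heart-type binding protein, rested on few molecules, with 13.1, 24.6, 29.7 and 39.0 CPM in OPCs from 36 UMIs. It was 5.75 to 12.3 CPM by the mean in the other types. OPCs held more than tanycytes, the next type, in 4 of 4 mice, with a ratio of pooled CPM of 2.28 (95% exact counting interval 1.47 to 3.48). The ranges overlapped, with up to 19.0 CPM in tanycytes.

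Fabp5, the epidermal-type binding protein, had its highest mean in COPs. It was 969, 744, 699 and 851 CPM in COPs (816 ± 121), against 243, 221, 178 and 213 CPM in OPCs (214 ± 26.9) and 680, 666, 451 and 451 CPM in oligodendrocytes (562 ± 128). COPs exceeded both neighbours in the lineage in 4 of 4 mice without overlap, and the ranges of COPs and astrocytes (609 ± 121) overlapped although COPs were higher within each of the 4 mice. Scd2, which introduces a double bond into saturated fatty acids, was 3898, 3677, 3117 and 3735 CPM in oligodendrocytes (3607 ± 340). It was 1766, 1616, 1570 and 1681 CPM in COPs (1658 ± 85.0) and 1250, 1250, 1138 and 1150 CPM in OPCs (1197 ± 61.7). The 3 stages were separated without overlap, and astrocytes (2544 ± 202) stood between oligodendrocytes and COPs, apart from both. After thinning, 83.4% ± 3.59 of oligodendrocytes held a Scd2 UMI, and 30.0% ± 4.50 of endothelial cells did, against 96.2% ± 3.09 and 53.9% ± 7.11 of unthinned cells.

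In COPs against OPCs, 4 of 6 tested members were called, where 24% of all genes were. Fabp5 was higher at 1.97 (SE 0.11, adjusted p = 2.6e-31, edgeR), and Fabp7 at -2.51 (SE 0.12, adjusted p = 3.8e-35, edgeR), Apoe at -1.39 (SE 0.09) and Abca1 at -1.08 (SE 0.25) were lower. The Abca1 call was lost without mouse 3, at -0.71 with an adjusted p of 0.062 (edgeR, over all genes), and with no filter on low counts, at -0.98. The astrocyte marker sum was also lower, at 891 to 1216 CPM in COPs and 2748 to 3116 CPM in OPCs, and its part in the Apoe difference was not tested. In oligodendrocytes against COPs, 2 of 6 were called, where 27.1% of all genes were. Scd2 was higher at 1.39 (SE 0.08, adjusted p = 4.4e-25, edgeR), and Apoe was higher by the same 1.39 (SE 0.10) beside an astrocyte marker sum of 1585 to 2129 CPM. Fabp5 differed by -0.28 (SE 0.09) and Fabp7 by -0.50 (SE 0.15), which are below the fold of a call. In OPCs against astrocytes, 6 of 6 were called, where 23.2% of all genes were. Fabp7 alone was higher in OPCs (1.12, SE 0.09), and the other 5 were lower, from -2.36 (Clu) to -1.37 (Scd2).

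**Figure D3:**
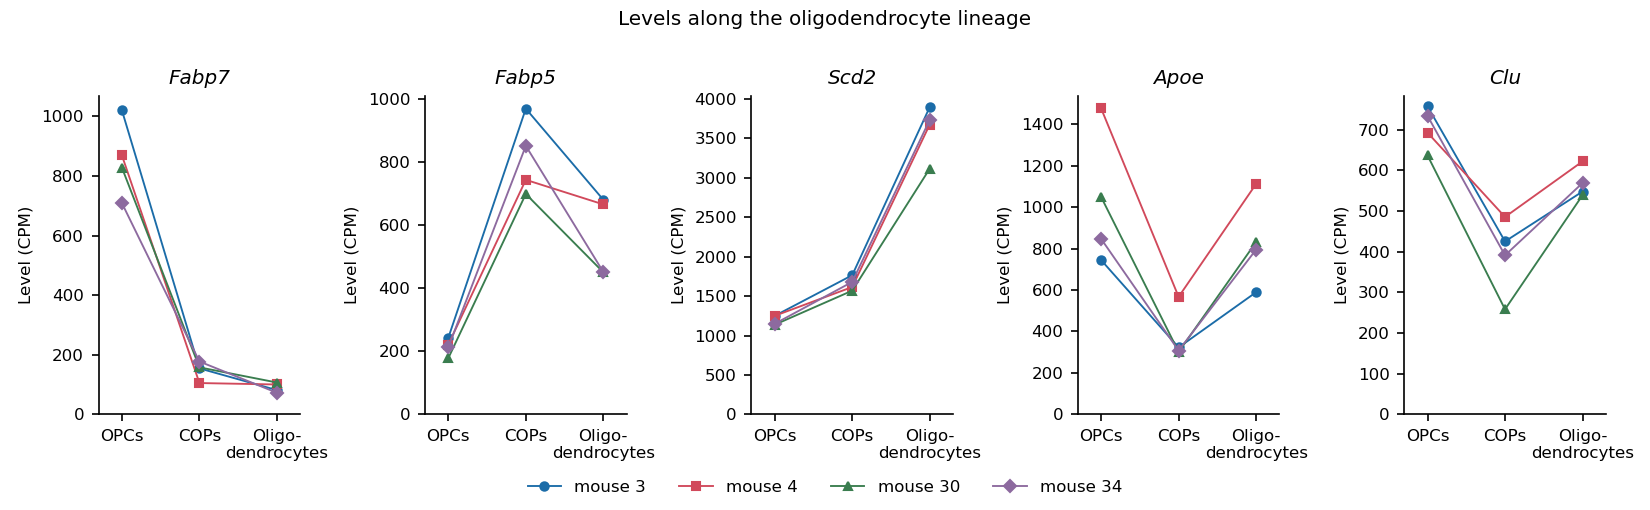
Level in CPM (vertical axes, which differ between panels) of Fabp7, Fabp5, Scd2, Apoe and Clu in OPCs, COPs and oligodendrocytes, with a line for each mouse. In each of the 4 mice Fabp7 is highest in OPCs, Fabp5 in COPs and Scd2 in oligodendrocytes, while Apoe and Clu are lowest in COPs.

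Cd36, a receptor for long-chain fatty acids and modified lipoproteins, was highest in ependymal cells and in cells labelled microglia, where macrophage marker cells held most of it, and scarce elsewhere. Ependymal cells held 11, 10, 25 and 31 UMIs in mice 3, 4, 30 and 34, or 17.8, 28.9, 52.7 and 37.3 CPM (34.2 ± 14.7). Tanycytes held 4 UMIs and astrocytes 3 in all, far below the ependymal level in 4 of 4 mice. The ratio of pooled CPM was 47.9 for ependymal cells over tanycytes (95% exact counting interval 18.0 to 180.3) and 62.0 over astrocytes (20.4 to 307). OPCs and COPs held no Cd36 UMI, so ependymal cells were at least 15.5-fold and 14.4-fold higher, taking 3 UMIs over the 4 mice as the floor. The 77 ependymal UMIs came from 62 of 1530 cells, with at most 3 in a cell. All 62 held an ependymal marker UMI, as did 98.7% of the other ependymal cells. Of the 62, 5 (8.06%) held a microglial marker UMI and 8 (12.9%) an endothelial one, against 5.86% and 4.16% of the others. A perivascular macrophage marker UMI (Mrc1, Cd163, Lyve1 or Pf4) was held by 3 of the 62 (4.84%) and by 0.749% of the others. Cells with a Cd36 UMI were deeper, with a median of 1932 UMIs against 1115. After thinning to 500 UMIs, 1.21% ± 0.482 of ependymal cells and 0.0743% ± 0.111 of tanycytes held Cd36, and 4.01% ± 1.70 and 0.110% ± 0.102 did unthinned.

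Microglia were the smallest compared type, with 380 cells, and Lpl and Cd36 rest on few molecules there. Cd36 had 0, 2, 5 and 4 UMIs in mice 3, 4, 30 and 34, that is 0, 44.7, 50.7 and 33.7 CPM, and overlapped with ependymal cells. The ratio of ependymal to microglial CPM was 1.22 (95% exact counting interval 0.645 to 2.54), and the order of the means of these types turned over without mouse 3. Of the 9 microglia with a Cd36 UMI, 6 also held a UMI of a perivascular macrophage marker, as did 7.55% of the 371 without Cd36, and the median doublet score was 0.105 against 0.057. The 346 microglia without such a marker held 4 of the 11 Cd36 UMIs (14.7 ± 12.3 CPM), against 32.3 ± 22.6 CPM in all microglia. Lpl had 1, 4, 5 and 4 UMIs in microglia, or 7.49, 89.4, 50.7 and 33.7 CPM, and the highest of these values, in mouse 4, rests on 1 cell of 34 that held all 4 UMIs. Endothelial cells, the next type, had 3, 1, 4 and 0 UMIs (6.16 ± 6.42 CPM). The ranges overlapped, with up to 15.2 CPM in endothelial cells, although microglia were higher in 4 of 4 mice. The ratio of pooled CPM was 7.48 over endothelial cells (95% exact counting interval 2.93 to 20.6) and 8.04 over ependymal cells (3.32 to 20.2). These intervals take UMIs as independent, although the 14 microglial UMIs came from 10 cells. Against COPs, where no Lpl UMI was found, microglia were at least 15.1-fold higher. None of the 10 microglia with an Lpl UMI held a macrophage marker UMI, and 9 held a microglial marker, against 9.19% and 98.6% of the other 370. Their median doublet score was 0.130, against 0.058 in the others. The part of doublets in Lpl and Cd36 per cell was not tested. Lpl was tested in none of the 9 comparisons, Cd36 in 2 (both with ependymal cells) and Fabp3 in 1, because their counts were below the filter elsewhere.

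Apoe within the microglial label was uneven. The 34 cells with a macrophage marker UMI held 6821, 3093, 2100 and 5620 CPM of Apoe in mice 3, 4, 30 and 34, from 2, 3, 20 and 9 cells. The 346 others held 677, 1741, 1525 and 849 CPM (1198 ± 515). Cells with a macrophage marker were higher in 4 of 4 mice, and the mean of all microglia was 1349 ± 475. In microglia against astrocytes, 5 of 6 tested members were called, each lower, where 37.8% of all genes were called. The largest difference was that of Clu (-1.85, SE 0.14), and Abca1 was not called (-0.61, SE 0.25, adjusted p = 0.041, edgeR). In endothelial cells against astrocytes, 6 of 6 were called, each lower, where 35% of all genes were, from -2.46 (Clu) to -1.86 (Scd2). Their median was -2.26, against -0.02 for all genes. In endothelial cells against microglia, 2 of 6 were called, where 34.5% of all genes were. These were Abca1 (-1.26, SE 0.31) and Fabp7 (-1.08, SE 0.28), and both calls were lost with no filter on low counts (-0.98 and -0.78), that of Fabp7 also without mouse 30 (-0.92). The vascular leptomeningeal cells held 96 UMIs of Apoe, 84 of Scd2, 44 of Clu and none of Cd36 over the 4 mice, which allows up to 24.1 CPM of Cd36. Of the 8 compared types, endothelial cells had the lowest mean of Fabp5 (131 ± 30.4 CPM), Fabp7 and Scd2 (723 ± 102 CPM). They overlapped with microglia for Fabp5 (163 ± 63.4 CPM) and Scd2 (733 ± 131 CPM) and with ependymal cells for Fabp7.

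**Figure D4:**
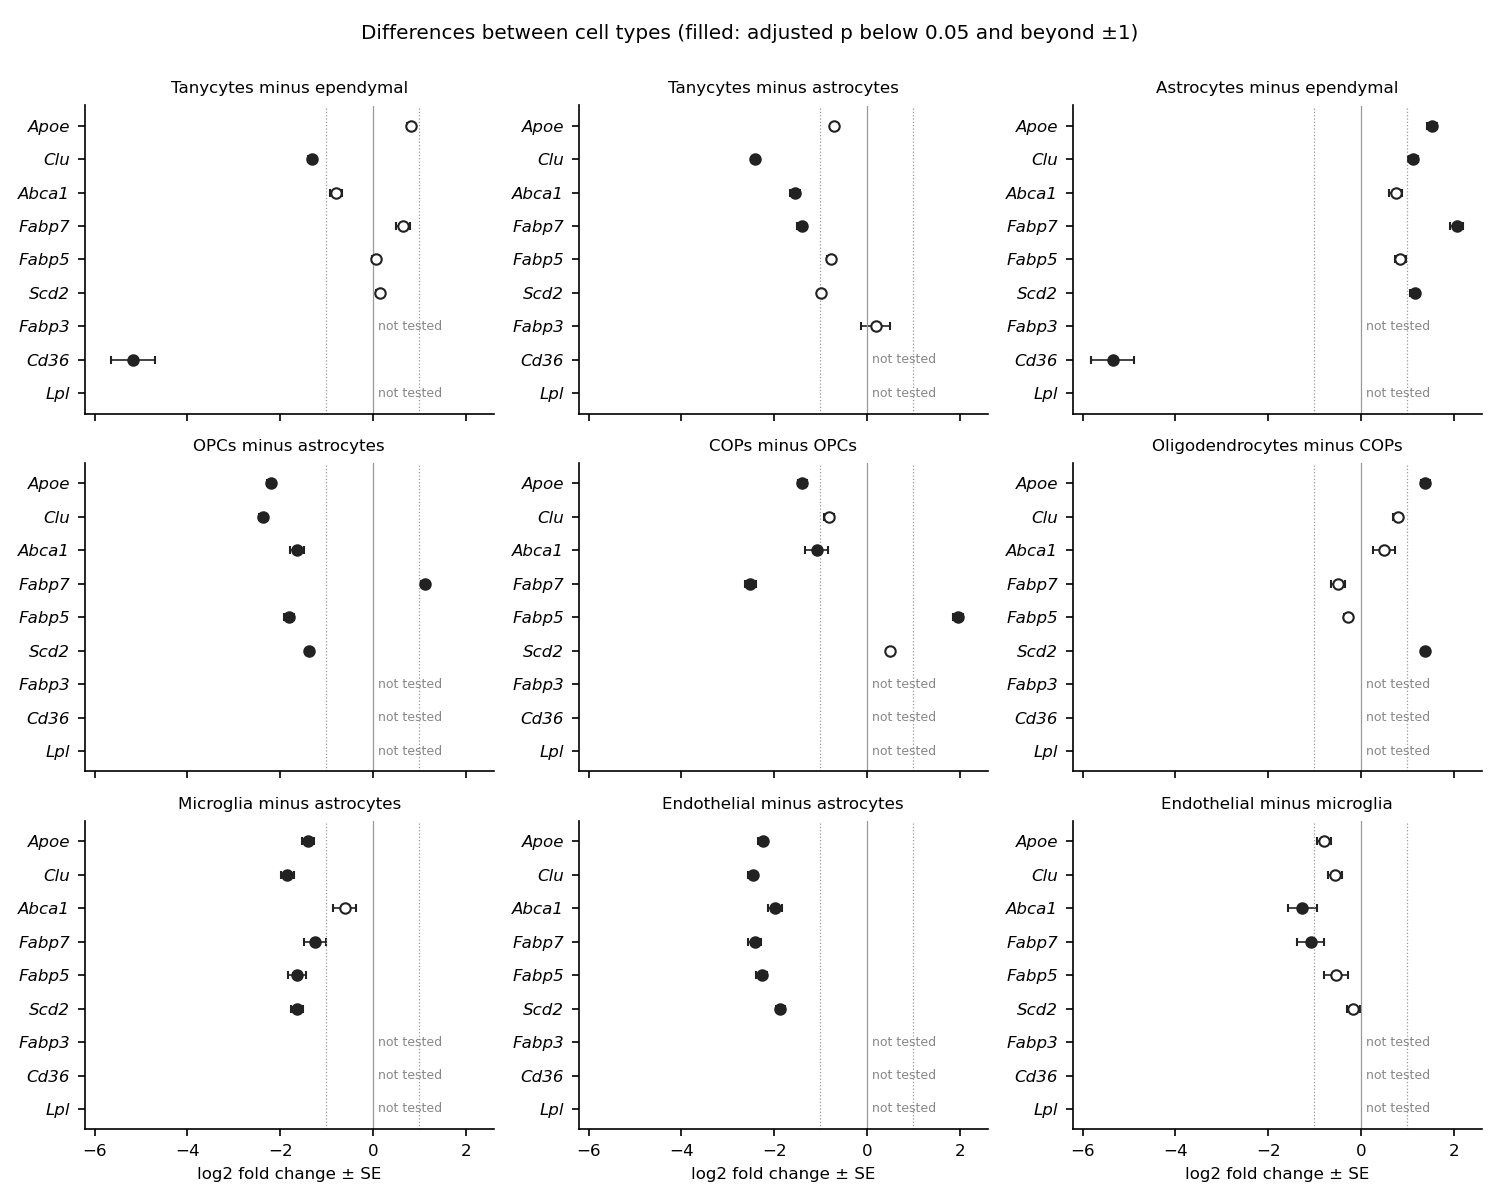
Log2 fold change between cell types (horizontal axes, bars of 1 SE, edgeR) for each gene in 9 comparisons, with filled points for genes past the thresholds of a call (Cd36 passed the filter on low counts through ependymal cells alone), dotted lines at a fold change of 1 in either direction and genes below the filter on low counts marked as not tested. Members lie to the left of 0 in endothelial cells and microglia against astrocytes, and Fabp5 and Fabp7 lie on opposite sides of 0 in COPs against OPCs.

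The mice differed in the same way across types for some members. Apoe was highest in mouse 4 in 8 of 8 types, with a highest-to-lowest ratio of 1.75 in astrocytes, 1.73 in tanycytes and 1.89 in oligodendrocytes. Of the 1381 genes with at least 50 CPM in every type, 28 (2.03%) were highest in mouse 4 in 8 of 8 types. The SD of log2 CPM over mice was 0.36 in astrocytes, 0.37 in oligodendrocytes, 0.23 in ependymal cells and 0.56 in microglia, above that of 89.2%, 94.3%, 44.3% and 57.8% of the genes at 50 CPM or more in those types. Scd2 was lowest in mouse 30 in 8 of 8 types. Its SD of log2 CPM was 0.07 in OPCs and COPs, 0.11 in astrocytes, 0.21 in endothelial cells and 0.27 in microglia. Clu was lowest in mouse 30 in 7 of 8 types, and Fabp5 was highest in mouse 3 in 7 of 8 types. Of the 1381 genes, 1.38% were lowest in mouse 30 in 8 of 8 types and 3.26% in 7 or more, and 1.88% were highest in mouse 3 in 7 or more. The types of a mouse share its library and free RNA, so these counts are not independent observations, and the part of the library was not tested.

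**Figure D5:**
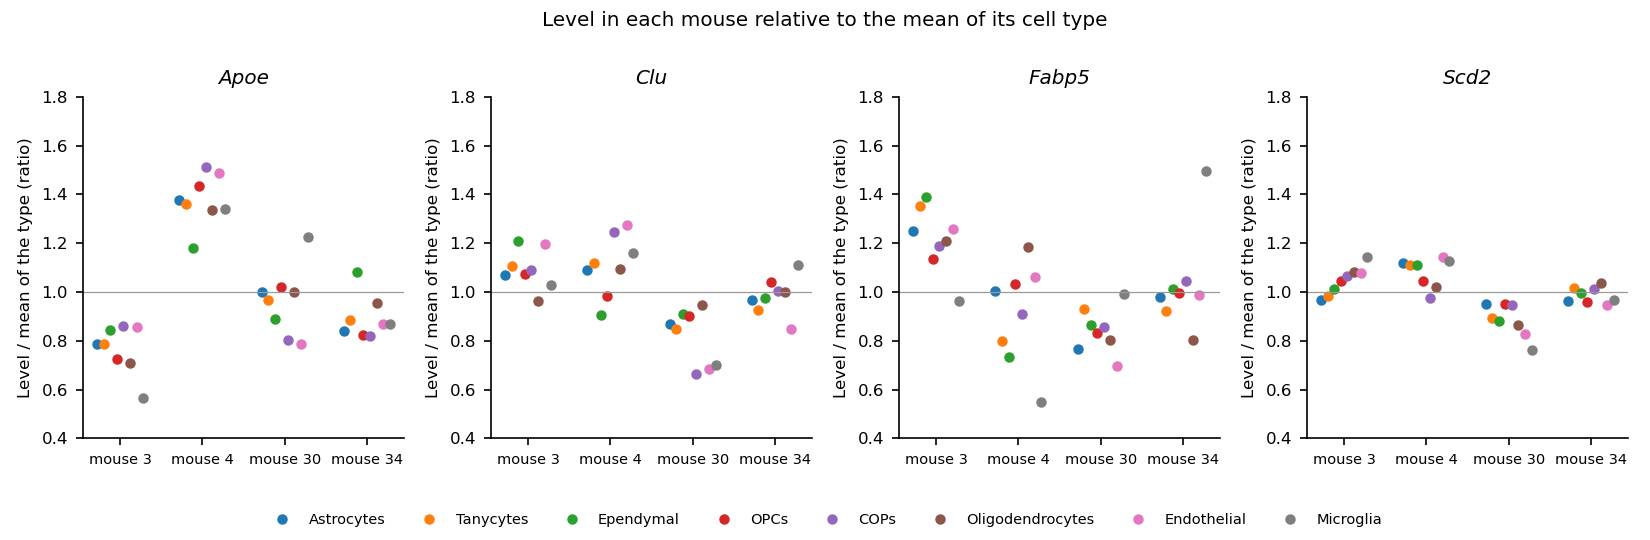
Level of Apoe, Clu, Fabp5 and Scd2 in each mouse divided by the mean of the 4 mice in the same cell type (vertical axis, ratio), with 1 colour per cell type. All 8 Apoe points of mouse 4 lie above 1, and all 8 Scd2 points of mouse 30 lie below 1.

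Together the 9 genes made up 1.05% ± 0.137 of all UMIs in astrocytes, 0.572% ± 0.0460 in oligodendrocytes and 0.240% ± 0.0526 in endothelial cells. Across the 8 type means, the closest pairs by the correlation of log2(CPM + 1) were Clu and Abca1 (r = 0.91), Fabp5 and Scd2 (r = 0.83) and Apoe and Abca1 (r = 0.81). Among 6574 genes with at least 50 CPM in some type, the genes most like a member were Acot11 for Apoe (r = 0.97), Slc22a4 and Gfap for Clu (0.99 and 0.96), Fzd1 for Abca1 (0.97), Dclk2, Syn2 and Ptprz1 for Fabp7 (0.98, 0.97 and 0.97), Gramd3 for Fabp5 (0.94) and Kif1b for Scd2 (0.96). Of the scarce members, the closest to Lpl was Cd83 (0.99) and the closest to Cd36 was Gcnt1 (0.97). These are descriptions over 8 points that share libraries.

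A wider list of 60 genes of lipoprotein and fatty acid handling, 59 of them listed, was examined beside the members. Genes of the list that passed the filter on low counts through 1 type alone had to differ. They were not taken out of the counts below. In astrocytes against ependymal cells, 28 of its 44 tested genes were called higher and 3 lower, against 14.3% higher and 17.6% lower among all tested genes, with a median of 1.40 against 0.02. Angptl4, an inhibitor of lipoprotein lipase, was at 32.6 ± 7.98 CPM in astrocytes against 3 UMIs in ependymal cells. The fatty acid elongase Elovl2 was at 39.1 ± 10.0 CPM against 7 UMIs. Both passed the filter through astrocytes alone. The phospholipid transfer protein Pltp was lower in astrocytes (-3.52, SE 0.14). In tanycytes against astrocytes, 1 of 51 was higher and 22 lower, against 10.1% and 11.0% of all genes. Lower were Lcat, which esterifies lipoprotein cholesterol (-2.98, SE 0.19), and the lysophosphatidylcholine transporter Mfsd2a (-2.96, SE 0.19). Angptl4 was at 8 UMIs in tanycytes against 32.6 ± 7.98 CPM in astrocytes, and passed the filter through astrocytes alone. In tanycytes against ependymal cells, 4 of 35 were higher and 3 lower, a share close to the 19.8% called among all genes (6.73% higher and 13.1% lower). Pltp was lower in tanycytes (-2.53, SE 0.11). The elongase Elovl7 was at 21 UMIs in tanycytes against 34.2 ± 8.35 CPM in ependymal cells. Elovl2 was at 16.7 ± 2.39 CPM in tanycytes against 7 UMIs in ependymal cells. Both elongases passed the filter through 1 type alone.

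Along the oligodendrocyte lineage, 4 of 42 tested genes of the list were higher and 23 lower in OPCs against astrocytes, against 10.9% and 12.4% of all genes. The sterol transporter Abcg1 was at 78.6 ± 22.1 CPM in OPCs against 8.16 ± 1.93 CPM in astrocytes. Elovl2 was at 5 UMIs and Angptl4 at 2 UMIs in OPCs, against 39.1 ± 10.0 and 32.6 ± 7.98 CPM in astrocytes. Each passed the filter on low counts through 1 type alone. In COPs against OPCs, 5 of 29 were higher and 6 lower, against 10.8% and 13.2% of all genes. Elovl7 (190 ± 44.2 against 8.37 ± 11.2 CPM) and the lysosomal receptor Scarb2 (343 ± 30.9 against 66.7 ± 6.84 CPM) were higher, and Lrp1, a receptor for Apoe-bearing particles, was lower (96.2 ± 24.9 against 503 ± 55.7 CPM). In oligodendrocytes against COPs, 19 of 38 were higher and 4 lower, against 13.8% and 13.3% of all genes. Apolipoprotein D (Apod) was 958 ± 116 against 35.5 ± 11.9 CPM, and the lipid droplet coat gene Plin3 was 156 ± 21.9 against 7.50 ± 4.46 CPM. Plin4, of the same family, was 59.4 ± 43.8 CPM against 2 UMIs in COPs. In microglia against astrocytes, 3 of 35 were higher and 18 lower, against 17.8% and 19.97% of all genes, with Trem2, a microglial receptor for lipids and Apoe, at 942 ± 261 against 11.4 ± 2.49 CPM, and the fatty acid transporter Slc27a1 (-2.90, SE 0.30) and the acyl-CoA synthetase Acsl6 (-2.82, SE 0.28) lower. In endothelial cells against astrocytes, 11 of 49 were higher and 21 lower, against 17.2% and 17.8% of all genes. Pltp was higher in endothelial cells (922 ± 73.8 against 56.3 ± 4.85 CPM). Elovl7 was at 72.0 ± 26.9 CPM in endothelial cells against 17 UMIs in astrocytes. Elovl2 was at 5 UMIs in endothelial cells against 39.1 ± 10.0 CPM in astrocytes. Both elongases passed the filter through 1 type alone. In endothelial cells against microglia, 6 of 23 were higher and 3 lower, against 20.3% and 14.1% of all genes. The share called (39.1%) was thus close to that of all genes (34.5%). Pltp was at 922 ± 73.8 CPM against 10 UMIs in microglia, and Trem2 at 23 UMIs against 942 ± 261 CPM in microglia. The Apoe receptor Lrp8 was at 156 UMIs against 1. Each of these genes passed the filter through 1 type alone.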

How the data were processed

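Single cells of the hypothalamus of 4 R50E mice were analysed. The deposited table gives UMI counts per gene and cell as the authors left them, whole numbers with no normalization, and the submitters' processing notes name Cell Ranger 1.2 and Seurat and the builds GRCm38, mm10 and GRCh38. Which of these made the count table, and how the cell types were named, is not given in the sources used here. The authors' mitochondrial percent per cell (at most 20.0%) was used only to describe the cells, and the doublet score, a fraction as deposited, was used in 1 alternative. The silhouette score deposited beside it was not used. Another 12 libraries with 50172 cells match no labelled sample, and mice 12 and 37 had no cells here, so neither was used. The paper at hand describes other samples and gave no design.

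Counts were added up within each mouse and type (at least 20 cells) and scaled to 1000000 UMIs per sum, giving CPM. Types were compared with edgeR 4.0.16 (R 4.3.3, TMM, filterByExpr, quasi-likelihood test, two-sided, Benjamini-Hochberg over all genes), with the mouse as a block, since each mouse gave every type. Standard errors were taken from the F statistic, and the procedure was tested on simulated data. DESeq2 1.42.0, other filters, leaving out each mouse, thinned sums, doublet scores and cell depth were tried as alternatives. Shares of cells were computed after thinning each cell to 500 UMIs (1 cell was below that). Intervals and floors cover counting error only. Doublets were not removed beyond the authors' filter.

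Named genes were the 9 members, the 3 genes most correlated with each, and, of a list of 60 pathway genes, the 3 called genes of largest change per comparison. Some of the correlated genes are not reported here. The members, lists and comparisons were chosen with earlier results of these data known. The counts of cells with macrophage and other markers, and the ratios of low counts, were added after the data had been seen. Promoter bases and motif shares came from RefSeq (GRCm38.p6) and gene positions from GENCODE vM21.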

Additional observations from a re-analysis of the deposited data

Results flagged for a closer look

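Of 53 values of a member in a type with at least 20 UMIs, 4 had 1 mouse far from the other 3, by a gap rule that sets apart about 5% of such groups by chance. Apoe in COPs was 567 CPM in mouse 4 and 301.5 to 323 CPM in the others. Apoe in endothelial cells was 1256 CPM in mouse 4 and 664 to 733 CPM in the others. Scd2 in astrocytes was 2846 CPM in mouse 4 and 2416 to 2466 CPM in the others. Fabp3 in tanycytes was 19.0 CPM in mouse 30 and 9.52 to 10.3 CPM in the others, from 65 UMIs in all.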

How the results depend on the processing

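Of 617 recomputed log2 fold changes of members, 602 kept their direction and their side of the call. Of 576 recomputed levels, 566 moved by less than 1 SD over mice, and of 72 shares of cells with a UMI, 60 moved by more when cells were not thinned. The 2 differences that were not called but changed sign were Fabp3 in tanycytes against astrocytes (0.19, and -0.081 to 0.41 when 1 mouse was left out, with -0.081 without mouse 30) and Scd2 in endothelial cells against microglia (-0.16, and 0.14 with no filter on low counts). The number of members called, Cd36 included, went from 2 to 1 in tanycytes against ependymal cells when the sums were thinned to equal totals. In endothelial cells against microglia it went from 2 to 0 of 3 tested with thinned sums, to 4 with cells of at least 1000 UMIs (mice 3, 30 and 34), and ranged from 1 to 2 when 1 mouse was left out, with 1 without mouse 30. The other counts of members called stayed within 1.5 times, also with DESeq2 and with no replicate block, which changed no call. With TMM-scaled library sizes, Fabp7 in OPCs was 719 CPM, Scd2 in oligodendrocytes 4376 CPM and Clu in oligodendrocytes 689 CPM. The highest type of Cd36 became microglia without mouse 3, without the 10% of cells with the highest doublet scores and with the mean of each cell's own CPM. Microglia (34 to 128 cells per mouse) limit the statements on Lpl and Cd36 in microglia.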
